A study of Mus musculus with 6 samples.

Results

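Jag1, Notch1, Notch2, Hey1, Hes1 and Nrarp are a ligand, a pair of receptors and 3 response genes of the Notch pathway, and their transcripts were followed in a mouse blood progenitor line with and without transforming growth factor β1 (TGF-β1). They are 6 of the 29161 genes and transcripts tested, reached through 7 probes whose RefSeq accession carries one of these symbols. They were chosen with their TGF-β1 change already known, so that change is given for them as a description and without a test. RNA came from Lhx2 cells, a mouse progenitor-like line sustained in culture by the LIM-homeobox gene Lhx2 and grown with stem cell factor and interleukin 6. Serum was replaced by 0.5% bovine serum albumin overnight, after which 3 samples were left untreated and 3 received TGF-β1 at 10 ng/ml, all for 2 h. Each sample was hybridised to its own 1-colour array. The design gives 3 independent RNA harvests, and samples of both groups with the same replicate number are taken here as a pair from 1 harvest. Separate cultures are not stated, and p-values measure the spread between these samples. Whether the line is 1 clone is not given in the sources used here.

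Notch receptors are cut at the membrane when a ligand on a neighbouring cell, such as Jag1, binds them. The released intracellular part enters the nucleus, joins the DNA-binding protein RBPJ and raises transcription of HES and HEY repressor genes and of Nrarp, which in turn dampens the pathway. Notch signals are needed for blood stem cells to arise in the embryo and for T cell development, and in several epithelial and endothelial cell types TGF-β is known to raise Jag1 or HEY genes.

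Signals are given on the log2 scale relative to the 75th percentile of the same array, so that 0 is that percentile, and levels are compared between arrays for 1 probe but not between probes. The 75th percentile lay between 794 and 1031 signal units, and 83.1 to 90.5% of spots were well above background. All 7 progenitor markers (Lhx2, Kit, Cd34, Ptprc, Cd48, Ly6a and Myb) were well above background on every array. Their summed signal was 127.5 to 145 times the 75th percentile in untreated and 125.4 to 141.9 times in treated samples. Within the sum, markers moved both ways. Myb (-0.62), Kit (-0.46), Ptprc (-0.39) and Cd48 (-0.37) were lower after TGF-β1 in all 3 pairs. Cd34 (0.39) and Ly6a (0.22) were higher in all 3 pairs, and Lhx2 differed by 0.04. Of these markers 0 passed (limma, adjusted p under 0.05), where 0.254% of all genes and transcripts tested did. This does not show that they were unchanged. Markers of stromal fibroblasts were also detected and differed widely between harvests, as given with the harvest results. The summed mast cell markers were lower in the treated sample of every pair (treated over untreated ratios of 0.848, 0.840 and 0.805), as were the lymphocyte markers (0.918, 0.861 and 0.846). The macrophage markers summed to 15.0 to 22.3 times the 75th percentile in untreated and 15.3 to 23.2 times in treated samples. This sum was higher in the treated sample of every pair, but its markers moved both ways. Csf1r was higher in all 3 pairs (mean difference 0.397) and Mrc1 was lower in all 3 pairs (-0.309). Adgre1, Itgam and Marco changed direction between pairs, and the median change of the macrophage markers tested was 0.02. The erythroid markers had ratios of 0.940, 0.938 and 1.20. The part of these cells in the differences was not tested. These are bulk samples, in which more RNA per cell and more cells of a type cannot be told apart. The TGF-β1 feedback gene Smad7 rose by 3.56 ± 0.15 (log2, moderated SE, 3 arrays per group; 11.8-fold, limma adjusted p = 0.00111), with pair differences of 3.55, 3.62 and 3.50.

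Upstream sequence was available for 4 of the 6 genes and is shown because these genes differ in how far they moved with TGF-β1: Jag1 and Nrarp most, Notch1 less and Notch2 least. Each line is the 250 bases before the annotated start, 5′ to 3′ on the gene's strand, from RefSeq on GRCm38.p6, and capitals mark the motif matches described after it.
Jag1, chr2:137116521-137116770, minus strand: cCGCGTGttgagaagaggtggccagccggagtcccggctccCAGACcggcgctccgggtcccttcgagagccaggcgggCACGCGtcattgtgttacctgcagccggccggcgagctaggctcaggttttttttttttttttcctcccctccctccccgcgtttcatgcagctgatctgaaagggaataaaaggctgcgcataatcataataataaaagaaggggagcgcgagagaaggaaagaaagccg
Nrarp, chr2:25180508-25180757, plus strand: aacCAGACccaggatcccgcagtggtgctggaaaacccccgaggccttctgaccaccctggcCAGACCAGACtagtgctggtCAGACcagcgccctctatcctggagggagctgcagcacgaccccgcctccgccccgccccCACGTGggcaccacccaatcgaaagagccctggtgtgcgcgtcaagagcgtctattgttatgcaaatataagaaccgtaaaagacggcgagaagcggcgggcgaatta
Notch1, chr2:26503823-26504072, minus strand: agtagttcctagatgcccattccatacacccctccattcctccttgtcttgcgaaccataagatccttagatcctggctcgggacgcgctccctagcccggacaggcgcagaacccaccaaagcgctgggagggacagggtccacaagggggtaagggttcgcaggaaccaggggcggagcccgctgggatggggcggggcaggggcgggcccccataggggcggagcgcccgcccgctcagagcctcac
Notch2, chr3:98013288-98013537, plus strand: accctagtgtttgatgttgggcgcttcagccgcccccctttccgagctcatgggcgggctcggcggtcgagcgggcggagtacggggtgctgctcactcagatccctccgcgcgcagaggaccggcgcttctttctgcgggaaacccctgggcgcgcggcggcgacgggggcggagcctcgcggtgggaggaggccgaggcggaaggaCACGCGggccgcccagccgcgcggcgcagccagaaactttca
Both strands were searched for CAGAC (the SMAD box), GTGGGAA (the core of an RBPJ site), CACGTG (an E-box) and CACGCG (a class C site, the kinds of site that HES and HEY proteins bind), and no matches overlapped. Among 32851 mouse promoters of the same length, 42.2% held CAGAC, 5.42% GTGGGAA, 6.02% CACGTG and 7.62% CACGCG. The Nrarp window held 4 CAGAC matches, as many or more of which occur in 0.475% of promoters, and 1 CACGTG. The Jag1 window held 1 CAGAC and 2 CACGCG, and 1.27% of promoters hold at least 2 of the latter. Notch2 had 1 CACGCG and Notch1 had none of the 4 motifs. A match is a description of the letters, and no binding was measured.

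Of the 6 genes, 5 were higher after TGF-β1 in all 3 pairs with treated and untreated arrays that did not overlap. These were Hey1 (13.0-fold), Jag1 (9.40-fold, with 1 untreated array not well above background), Nrarp (2.61-fold), Hes1 (1.95-fold) and Notch1 (1.62-fold). Notch2 overlapped between the groups (1.08-fold). Over all genes and transcripts tested, 5.37% had every treated array above every untreated one, and nothing is read from this comparison, since the genes were chosen on it. The median change of the 6 genes was 1.17, beside -0.01 over all genes and transcripts tested.

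**Figure D1:**
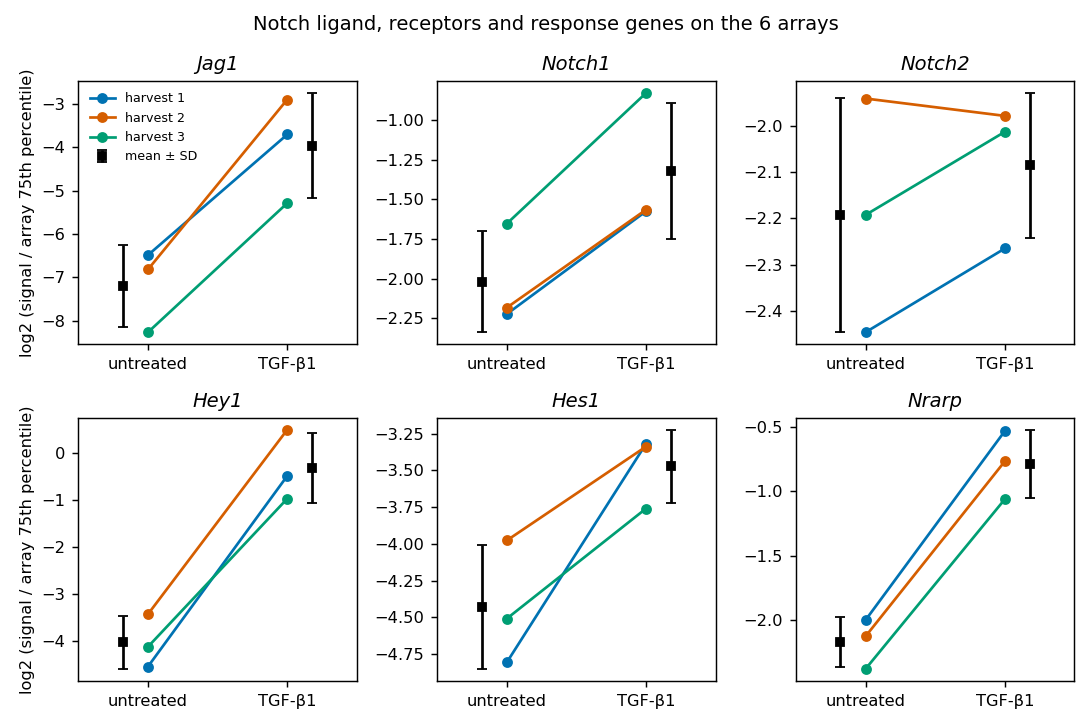
Log2 signal relative to the 75th percentile of the array (vertical axis) for each of the 6 genes in untreated and TGF-β1-treated samples, with lines joining the samples of 1 harvest. In Hey1, Jag1, Nrarp, Hes1 and Notch1 every treated point lies above every untreated one, with lines of differing steepness, and in Notch2 the groups overlap.

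Jag1, a transmembrane ligand of Notch receptors, was read by 2 probes of the same transcript (NM_013822). The brighter probe gave -6.49, -6.82 and -8.27 in untreated replicates 1, 2 and 3 and -3.70, -2.89 and -5.29 in treated replicates 1, 2 and 3. Every treated array lay above every untreated one, by at least 1.20, and replicate 3 was the lowest of both groups. The means were -7.19 ± 0.95 and -3.96 ± 1.22 (SD, n = 3), a difference of 3.23 with pair differences of 2.79, 3.93 and 2.98. In signal units this was 10.0, 8.87 and 2.57 in untreated and 67.9, 136 and 26.4 in treated samples. The probe was well above background on all treated arrays and on 2 of 3 untreated arrays. In an alternative chosen after seeing the data, untreated replicate 3, the array not well above background, was set to the lowest signal well above background there. The difference was then 2.65 (6.29-fold) and that of pair 3 was 1.24 (2.37-fold). The dimmer probe gave -7.66, -7.15 and -8.59 untreated and -7.63, -6.74 and -6.87 treated. It was well above background on 0 of 3 untreated and 2 of 3 treated arrays, its groups overlapped, and it gives no fold. The Jag1 change thus rests on 1 probe.

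Notch1, the receptor best known for directing T cell fate, measured -2.22, -2.18 and -1.65 in untreated and -1.58, -1.57 and -0.83 in treated replicates 1, 2 and 3. Its groups were separated by only 0.08, because untreated replicate 3 was nearly as high as treated replicates 1 and 2. Within pairs the difference was even, at 0.65, 0.62 and 0.82, with a mean of 0.70 ± 0.11 (SD, n = 3). Notch2, a second receptor of the family, measured -2.45, -1.94 and -2.19 in untreated and -2.26, -1.98 and -2.01 in treated replicates 1, 2 and 3. Pair 2 went the other way from pairs 1 and 3, with differences of 0.18, -0.04 and 0.18. The mean difference was 0.11. Both receptors were well above background on all 6 arrays.

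Hey1, a basic helix-loop-helix repressor induced by Notch and, in other cell types, by BMP signals, had the greatest difference of the 6 genes and the 4th greatest increase among the 15636 named genes tested. It gave -4.54, -3.42 and -4.12 in untreated and -0.49, 0.49 and -0.98 in treated replicates 1, 2 and 3. The lowest treated array stood 2.45 above the highest untreated array, and replicate 2 was the highest of both groups. In signal units Hey1 had 38.9, 93.3 and 45.8 in untreated and 627, 1408 and 524 in treated samples. The means were -4.03 ± 0.56 and -0.33 ± 0.74 (SD, n = 3), and the pairs differed by 4.04, 3.91 and 3.14, which is 16.5-, 15.0- and 8.81-fold.

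Hes1, a related repressor and a widely used Notch readout, gave -4.81, -3.98 and -4.51 in untreated and -3.32, -3.34 and -3.76 in treated replicates 1, 2 and 3. Treated arrays were all above untreated ones, by 0.22 at the closest. Pair 1 differed by 1.49 and pairs 2 and 3 by 0.64 and 0.75, so pair 1 gave the greatest of the 3. The mean difference was 0.96, with an SD over pairs of 0.46.

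Nrarp, a small ankyrin-repeat protein that limits Notch complex activity, gave -2.00, -2.13 and -2.38 in untreated and -0.53, -0.77 and -1.06 in treated replicates 1, 2 and 3. The groups lay 0.94 apart, and replicate 3 was the lowest of each group. Pair differences of 1.47, 1.36 and 1.32 were the most even of the 6 genes, with a mean of 1.38 and an SD of 0.08. In signal units it had 225, 229 and 152 in untreated and 611, 592 and 494 in treated samples.

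Ordered by their difference, the genes ran Hey1, Jag1, Nrarp, Hes1, Notch1 and Notch2. The pair differences of Hey1 (3.14 to 4.04) and Jag1 (2.79 to 3.93) overlapped, as did those of Nrarp (1.32 to 1.47) with Hes1 (0.64 to 1.49) and of Hes1 with Notch1 (0.62 to 0.82). Those of Notch1 and Notch2 did not overlap. Those of Jag1 and Nrarp did not overlap as measured, but did with untreated replicate 3 of Jag1 at the lowest signal well above background, where pair 3 gave 1.24.

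The differences of all 6 genes were smaller under another background correction. With normexp background correction, which also moved the median change of all genes to -0.16, Hey1 had 2.39, Nrarp 0.92, Jag1 0.57, Notch1 0.49, Hes1 0.20 and Notch2 -0.05. The authors' series matrix, which follows signal without background subtraction, gave Jag1 1.18 and Hey1 3.04. The arrays lay on 2 slides: pair 1 and untreated replicate 3 shared slide 1, and pair 2 and treated replicate 3 shared slide 2. Within slide 1 and slide 2, Hey1 differed by 3.83 and 3.18, Jag1 by 3.68 and 2.73, and Nrarp by 1.66 and 1.21. Hes1 differed by 1.34 and 0.43 and Notch1 by 0.36 and 0.98. Notch2 turned direction, with 0.05 and -0.05.

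**Figure D2:**
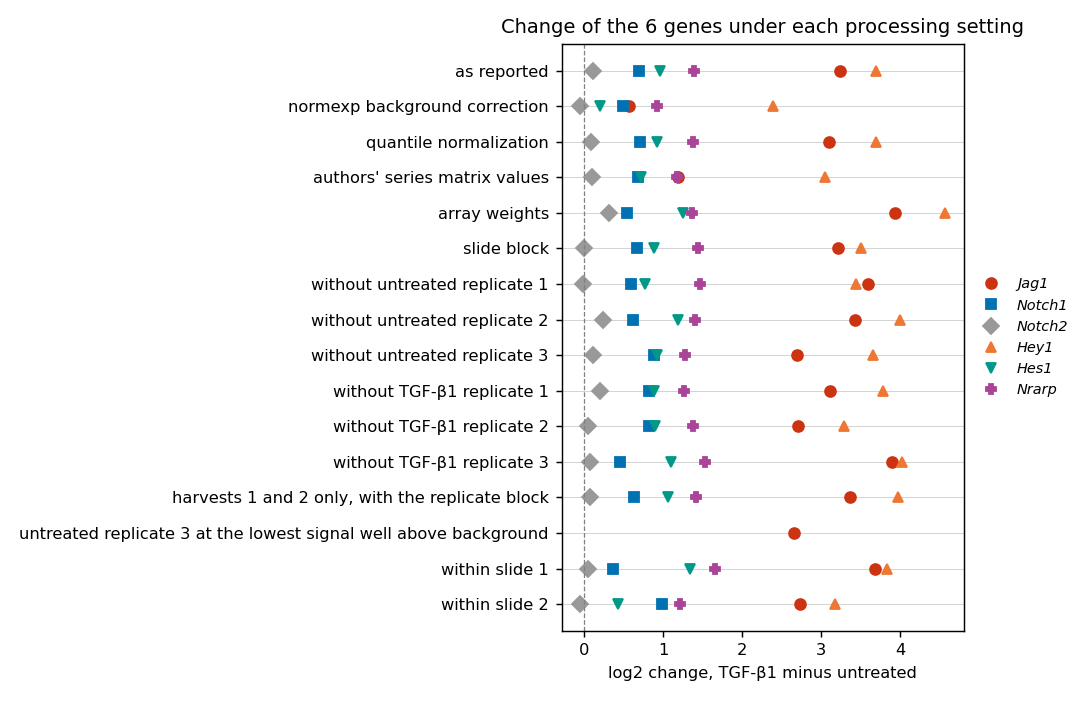
Log2 difference between TGF-β1-treated and untreated samples (horizontal axis) for each of the 6 genes under each processing setting (rows). Hey1 stays between 2.39 and 4.57, Jag1 runs from 0.57 with normexp correction to 3.93 with array weights, and Notch2 lies between -0.05 and 0.31.

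Whether the genes differed between harvests was tested with both harvest terms beside the treatment term. The residual of this test is the spread of the pair differences. The genes were chosen with their TGF-β1 change known, so the test is not independent of that choice. Jag1 was lower in harvest 3 than in harvests 1 and 2, with differences of -1.68 and -1.92, but 0 of the 6 genes passed (limma moderated F-test, adjusted over all genes and transcripts tested, of which 3.11% passed). At an unadjusted p under 0.05 there were 4 of 6, against 21.5% of all genes and transcripts tested, and for that reason nothing is read from this comparison. With untreated replicate 3 of Jag1 at the lowest signal well above background, the Jag1 differences were -0.81 and -1.05, and with the authors' matrix they were -0.51 and -0.68 (limma adjusted p = 0.411). The limma adjusted p was 0.0772 for Jag1, 0.119 for Notch1, 0.158 for Hey1, 0.226 for Nrarp, 0.273 for Notch2 and 0.385 for Hes1. Hey1 was 1.04 higher in harvest 2 than in harvest 1, and harvest 3 minus harvest 1 was -0.03. Harvest 1 lay wholly on slide 1 and harvest 2 on slide 2, so for these harvests the slide enters the difference. With the slide as a block it was 1.88 and Hey1 passed (limma adjusted p = 0.0289). For any gene, the slide term of that fit rests on harvest 3 alone, with untreated on slide 1 and treated on slide 2. It cannot be told from a differing TGF-β1 response of pair 3, which for Hey1 was 3.14 against 4.04 and 3.91. The value of 1.88 is thus not a harvest difference freed of the slide. Notch1 ran the other way from Jag1, with harvest 3 higher by 0.66 than harvest 1 and by 0.63 than harvest 2.

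These calls turned on single arrays, normalization, background correction, array weights and the slide block. Jag1 passed without any 1 of untreated replicate 1, untreated replicate 2, treated replicate 1 or treated replicate 2 (limma adjusted p between 0.0211 and 0.0401), and Hey1 passed without untreated replicate 3 (0.0153) or treated replicate 3 (0.02). Notch1 passed without untreated replicate 3 (limma adjusted p = 0.0354), with normexp correction (0.0277), with quantile normalization (0.05) and with the authors' matrix (0.0237). Hey1 also passed with array weights (limma adjusted p = 0.0141). Of all 29161 genes and transcripts tested, 906 passed as reported, 15478 with normexp correction and 6708 with array weights. The count was 1358 with quantile normalization, 1689 with the authors' matrix and 1338 with the slide block. Leaving out an array leaves 1 array in its harvest, so nothing is read from the calls made without an array. With normexp correction the Jag1 direction turned: harvest 3 was 1.12 above harvest 1 and 0.96 above harvest 2, where the median over all genes was 0.62 and 0.49. With that correction Notch1 was 0.88 higher in harvest 3 than in harvest 1, beside the same median of 0.62.

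The summed signal of 8 stromal fibroblast markers (such as Dcn and Col1a2) also differed between harvests. It was 21.7, 66.2 and 1.71 times the 75th percentile in untreated and 25.0, 63.7 and 1.98 times in treated replicates 1, 2 and 3. Harvests 1 and 2 thus carried 12.7 and 35.2 times as much as harvest 3, and 5 of the 8 markers passed the harvest test (limma; Col1a1, Col1a2, Col3a1, Dcn and Pdgfra). Jag1 was lowest and Notch1 highest in harvest 3, which had the least stromal signal. Harvest 3 also had the highest macrophage sum (22.3 untreated and 23.2 treated, against 15.0 to 16.5 in the other samples). Of the macrophage markers, Csf1r was higher in harvest 3 than in harvest 1 (1.21, limma adjusted p = 0.0219) and Mrc1 was lower (-2.46, limma adjusted p = 0.00508). The part of stromal cells or macrophages in the harvest levels was not tested. Within pairs, the treated over untreated ratio of the stromal sum was 1.15, 0.963 and 1.15. The part of stromal cells in the treatment differences was not tested either. Endothelial markers, 5 of 6 of which were tested with Tek below the filter, summed to 1.32 to 1.90 times the 75th percentile in untreated and 1.55 to 2.05 times in treated samples. Their pair ratios were 1.08, 1.06 and 1.18.

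**Figure D3:**
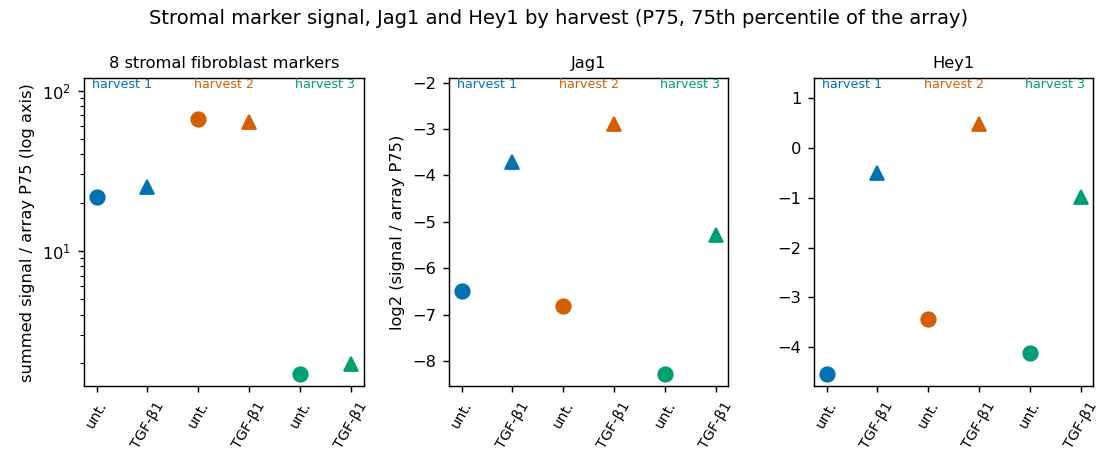
Summed signal of 8 stromal fibroblast markers in multiples of the 75th percentile of the array (left, log axis) and log2 signal of Jag1 and Hey1 relative to that percentile, for untreated (circles) and TGF-β1-treated (triangles) samples of harvests 1, 2 and 3. The stromal sum is lowest in harvest 3 and alike within a harvest, while Jag1 and Hey1 are higher in the treated sample of each harvest.

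The remaining pathway was described with 9 lists holding 79 further symbols, of which 69 were on the array and 68 were tested. After TGF-β1, 0 of the 68 passed in the fit without pairs (limma, where 0.254% of all genes and transcripts tested did, 0.226% higher and 0.0274% lower). The SE and p-values of treatment differences come from this fit unless the replicate block is named. At an unadjusted p under 0.05 there were 9, 8 higher and 1 lower, or 13.2% of the list against 5.77% of all. Changes were positive for 38 and negative for 30, and their median was 0.02, beside -0.01 over all. Groups did not overlap for 12 with higher treated arrays and for 2 with lower ones, or 17.6% and 2.94% of the list, where all genes and transcripts had 5.37% and 5.05%.

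The list of 10 other HES and HEY genes also holds Bhlhe40, Bhlhe41 and Helt, which do not carry a HES or HEY name. Its median change was 0.05, and the gene that stood out was Bhlhe40, a repressor known for roles in the clock and in immune cells. Bhlhe40 is thus not a HES or HEY gene by name. Bhlhe40 gave 0.27, 1.20 and 0.84 in untreated and 2.26, 2.45 and 2.43 in treated replicates 1, 2 and 3. All treated arrays lay above all untreated arrays, and the treated values were closer together. The difference was 1.61 ± 0.25 (log2, moderated SE), with limma adjusted p = 0.0803 and, with the replicate number as a block, 0.0472. It was the only one of the 68 to pass with the block, where 0.672% of all genes and transcripts passed, 0.552% higher and 0.12% lower. Hes6, a family member that opposes Hes1 in neural cells, had -0.21 ± 0.22. Hes5, named after its values were seen, had 0.62 ± 0.21 (limma adjusted p = 0.643), the greatest change among the genes of this list with a HES or HEY name.

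The 6 other ligands had changes from -0.34 to 0.38. Jag2, the relative of Jag1, differed by 0.38 ± 0.28, with a 95% interval of -0.28 to 1.03 and, with the replicate block, of 0.05 to 0.70 (limma adjusted p = 0.39), and Dlk1, a non-canonical ligand, by 0.15 ± 0.35. Of the receptors, Notch4 differed by 0.36 ± 0.15 (limma adjusted p = 0.903) and Notch3, named after its values were seen, by 0.15. None of these ligands or receptors passed, and this does not show that they were unchanged.

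The 9 genes of receptor cleavage had a median of 0.01. Furin, the protease that cuts the Notch precursor, differed by 0.65 ± 0.15 (limma adjusted p = 0.249, and 0.101 with the replicate block). Psen2, a γ-secretase subunit, differed by 0.01 ± 0.25. Of 4 glycosylation genes, Mfng, a fringe sugar transferase that tunes ligand choice, differed by 0.84 ± 0.31 (limma adjusted p = 0.742, and 0.138 with the replicate block). Its pair differences were 1.05, 0.99 and 0.48. The 10 trafficking and turnover genes ran from -0.25 to 0.35, with Neurl1a, a ubiquitin ligase, at 0.35 ± 0.18 and Dtx4, a Deltex ligase, at -0.09 ± 0.20.

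In the nuclear complex, 15 tested genes had a median of 0.02. Rbpj, the DNA-binding partner of Notch, chosen after its values were seen, differed by -0.06 ± 0.21, with a 95% interval of -0.55 to 0.43. Of the Groucho corepressors, which HES and HEY proteins recruit, Tle1 differed by 0.75 ± 0.16 (limma adjusted p = 0.21) and Tle4 by -0.35 ± 0.13 (limma adjusted p = 0.75). The 6 lymphoid Notch target genes tested ran from -0.27 (Nfkb2) to 0.21.

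**Figure D4:**
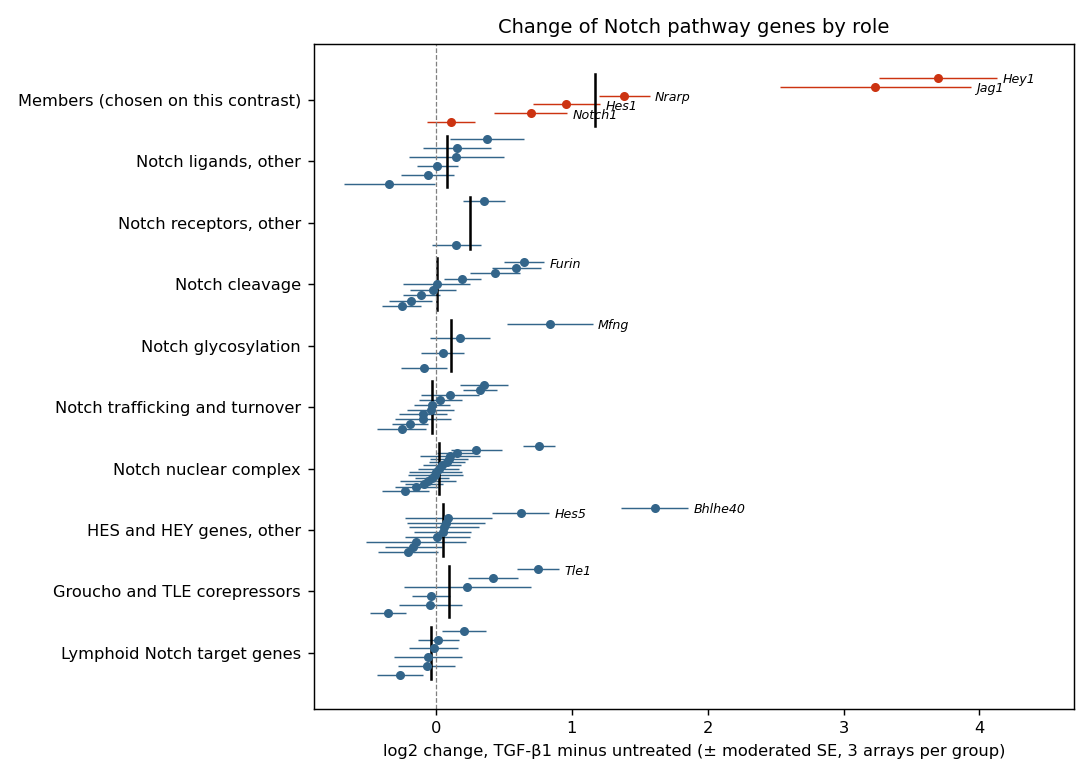
Log2 change between TGF-β1-treated and untreated samples (horizontal axis, points, with moderated SE as bars, 3 arrays per group) for the 6 genes, in red, and 68 other Notch pathway genes by role, in blue, with each list's median as a black line. Medians of the other lists lie between -0.04 and 0.25, and Bhlhe40 at 1.61 is the blue point farthest from 0.

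The genes whose profile over the 6 arrays was most like each member were found by the root mean square difference of centred log2 values among 9639 named genes with a centred SD of at least 0.2. Hey1 was nearest to Smad7 (0.423), Tmem119 (0.511) and Id3 (0.522), which differed between groups by 3.56, 3.46 and 3.39. Jag1 was nearest to Tnfrsf13c, the receptor for the B cell survival factor BAFF (0.572), to Id3 (0.609) and to F2r, a thrombin receptor (0.689). Its distances were the greatest of the 6 genes. F2r shared the low harvest 3 of Jag1, with -1.51 in untreated replicate 3 against 0.66 and 0.51 in the other untreated samples.

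Nrarp was nearest to Gsdme (0.0546), Rmdn2 (0.0866) and Csnk1e (0.0982), with differences of 1.28, 1.43 and 1.35. Hes1 was nearest to Vgll4 (0.0958), and Mical2 followed at 0.155. Notch1 was nearest to Stard8 (0.0568), B3gnt8 (0.0661) and Tnfrsf1b (0.068), all of which were highest in replicate 3 of each group, as Notch1 was. Notch2, with a centred SD of 0.20, was nearest to Adra1d (0.036), Zbtb7c (0.04) and Gsx1 (0.0415). The treatment difference is part of this likeness, so it lends the members no further support.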

How the data were processed

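Cy3-labelled RNA was put on 1-colour Agilent arrays (design 014868, mm8 annotation). Per the file headers, the authors extracted spot intensity in Feature Extraction 10.1.1.1. The deposited processed intensity is background-subtracted within an array and is not scaled between arrays. The authors' deposited series matrix holds log2 values that followed the log2 median signal (r between 0.99951 and 0.99989); its centring and normalization stay unknown. The submitters' processing notes name limma without a version.

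Values are log2 processed signal minus each array's 75th percentile. Outlier spots (43 to 101 per array) were left out, and 0 were saturated. Of 41174 probes, 36343 were well above background on at least 3 of 6 arrays; 23374 were named by RefSeq accession through a GRCm38.p6 table, used for names only. A gene is its passing probe of highest mean. Tests used limma 3.58.1 (R 4.3.3). P-values were adjusted by Benjamini-Hochberg over the 29161 genes or transcripts tested, at 0.05. The number of arrays limits the precision. The fit was tested on simulated data.

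Same-numbered samples deviated together (r = 0.636, 0.786 and 0.557 for pairs 1, 2 and 3, against -0.736 to 0.0712 for other numbers), and the series design gives independent harvests, so the numbers pair the samples. The main treatment fit nonetheless leaves the pairs out, so its SE include the spread between harvests. The median residual SD was 0.241 in that fit and 0.157 with the replicate block. The members and lists were chosen with earlier results of these data known. Named are the members; of each other Notch list the genes past the threshold, of greatest change and of highest level; the 3 nearest profiles; bright markers; Smad7 and Id1 as references (Id1 differed by 1.14 ± 0.19, moderated SE, limma adjusted p = 0.112). Some genes that this rule names are not reported here. Alternatives were normexp on the median signal (offset 50), quantile normalization, the matrix, the filter, mean probes, array weights, slide and replicate blocks, and leaving out arrays.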

Additional observations from a re-analysis of the deposited data

How the results depend on the processing

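The count of genes and transcripts past the threshold after TGF-β1 was 74 (66 higher, 8 lower). It was 5 with normexp correction (5 higher, 0 lower), 174 with the authors' matrix (149 and 25), 671 with array weights (475 and 196) and 7 to 24 without any 1 array. The replicate block gave 196 (161 and 35), 73 of them among the 74. Of the 68 other Notch genes 0 passed, and 2 with the matrix, 4 with array weights, 1 with the replicate block and 0 without any 1 array. Between harvests 906 passed, and 15478 with normexp, 1689 with the matrix, 6708 with array weights and 458 to 8294 without any 1 array (8294 without untreated replicate 3). Of the 6 members 0 passed between harvests, and 1 each with normexp, quantile normalization, the matrix, array weights or the slide block, and 1 to 2 without any 1 array. Of the other Notch genes 0 passed between harvests, and 30 with normexp, 9 with array weights, 2 each with quantile normalization, the matrix, the filter on all 6 arrays or the slide block, 1 with no filter and 0 to 13 without any 1 array. The causes were not tested. With harvests 1 and 2 alone, chosen after seeing the data, Hey1 differed by 3.98, Jag1 by 3.36, Nrarp by 1.42, Hes1 by 1.06, Notch1 by 0.63 and Notch2 by 0.07. Signal over background limits Jag1 most: untreated replicate 3 was not well above background.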

Other observations

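Between harvests, the other Notch genes also showed ligand differences that did not pass in the analysis as reported. Dlk1 was lower in harvest 3 than in harvest 2 (a difference of -1.02) and higher in harvest 2 than in harvest 1 (0.45; limma moderated F-test, adjusted p = 0.0525). Dlk1 passed with quantile normalization (limma adjusted p = 0.0481), the filter on all 6 arrays (0.0347), array weights (0.0195) and the slide block (0.0364). Over all genes and transcripts, 1358, 1004, 6708 and 1338 passed in these settings, and 906 as reported. Dlk1 did not pass with normexp correction, the authors' matrix, no filter or mean probes. Without untreated or treated replicate 3, which leaves harvest 3 with 1 array, its harvest 3 minus harvest 1 was -0.51 and -0.63. Jag2 was lower in harvest 3 than in harvest 1 (a difference of -0.74, limma adjusted p = 0.149). Unadjusted p was under 0.05 for 12 of the 68 genes, or 17.6%, against 21.5% of all genes and transcripts tested.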
